A study of Danio rerio with 17 samples.

Results

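Neurons marked by *lhx1a*, *uncx* and *emx2* were examined in single-cell RNA sequencing data from the optic tectum of zebrafish larvae. A barcode was taken as a member if at least 2 of the genes *lhx1a* (ENSDARG00000014018), *uncx* (ENSDARG00000102976) and *emx2* (ENSDARG00000039701) had at least 1 UMI, that is, 1 counted RNA molecule. Of 87881 deposited barcodes, 53173 passed the filters on quality, and 5741 of these were members (10.8%). Members were compared with 37065 other barcodes that passed the same filters and had at least 1 UMI of *elavl3*, a gene of differentiating and mature neurons. Because *lhx1a*, *uncx* and *emx2* chose the members, their values are given as a description and were not tested.

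The 11 batches were tecta, with the torus longitudinalis attached, dissected from wild-type TL larvae and dissociated with papain. In 4 batches the larvae were 6 days post-fertilization (dpf) and in 7 batches they were 7 dpf. No treatment or transgene distinguished the batches. Larvae were pooled within a batch, so that a batch, and not a larva or a cell, was the replicate.

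*lhx1a* encodes a LIM-homeodomain transcription factor, *uncx* a paired-type homeodomain factor and *emx2* a homeodomain factor related to the fly gene *empty spiracles*. Factors of these families are known to act in the choice of neuronal identity along the axes of the brain. In the mouse midbrain, GABAergic neurons depend on the zinc finger factor Gata2 and on Tal factors, and Gata3 and Sox14 are found in the same lineage. GABAergic neurons make their transmitter with glutamate decarboxylases (*gad1b*, *gad2*) and load it into vesicles with the transporter encoded by *slc32a1*, whereas *slc17a6a* and *slc17a6b* encode the vesicular transporters of glutamatergic neurons.

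The batches held 5073733 to 88294858 UMIs. Members had more UMIs per barcode (median 2783) than the others (2268), and the rule found more members among deeper barcodes. Members were 6.53% of the members and others with fewer than 1000 UMIs and 20.4% of those with 5000 to 7500 UMIs. For this reason the comparisons with the others and among GABAergic barcodes were repeated at matched depth. Every gene comparison was also repeated after thinning to 1000 UMIs per barcode. Neuronal UMIs in barcodes of other cells set a floor for detection. Their source, for example RNA free in the droplets or doublets, was not tested. Among 221 barcodes with at least 10 UMIs of microglial genes, which should lack these neuronal genes, 2.71% met the rule (exact binomial 95% interval 1.00 to 5.82%, counting error only), with a median of 3246 UMIs. Of these barcodes, 45.7% had at least 1 UMI of *elavl3* (39.0 to 52.5%), so that the comparison group can also hold cells other than neurons. Any pair of batches shared at most 0.736% of the barcodes of the smaller batch. The barcodes with the highest doublet scores were marked, as a fixed share of each count matrix that was taken from the study's overall share of doublets. They were 13.2% of members and 11.6% of the others, and each comparison was repeated without these barcodes.

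Members were present in all 11 batches. They made up 4.89% of members and other *elavl3* barcodes in the lowest batch (batch 2, 22 members), 12.0% in the median batch and 17.5% in the highest (batch 8, 1195 members). The numbers of members per batch were 133, 22, 47, 254, 508, 94, 116 and 1195 in batches 1 to 8, and 1477, 821 and 1074 in batches 10, 11 and 12. The sequencer was not in the labels, and batches 10, 11 and 12 were assigned to the NovaSeq by elimination. These lay close together at 12.1, 14.05 and 13.3%, whereas those assigned to the HiSeq (1 to 8) spanned the whole range.

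**Figure D1:**
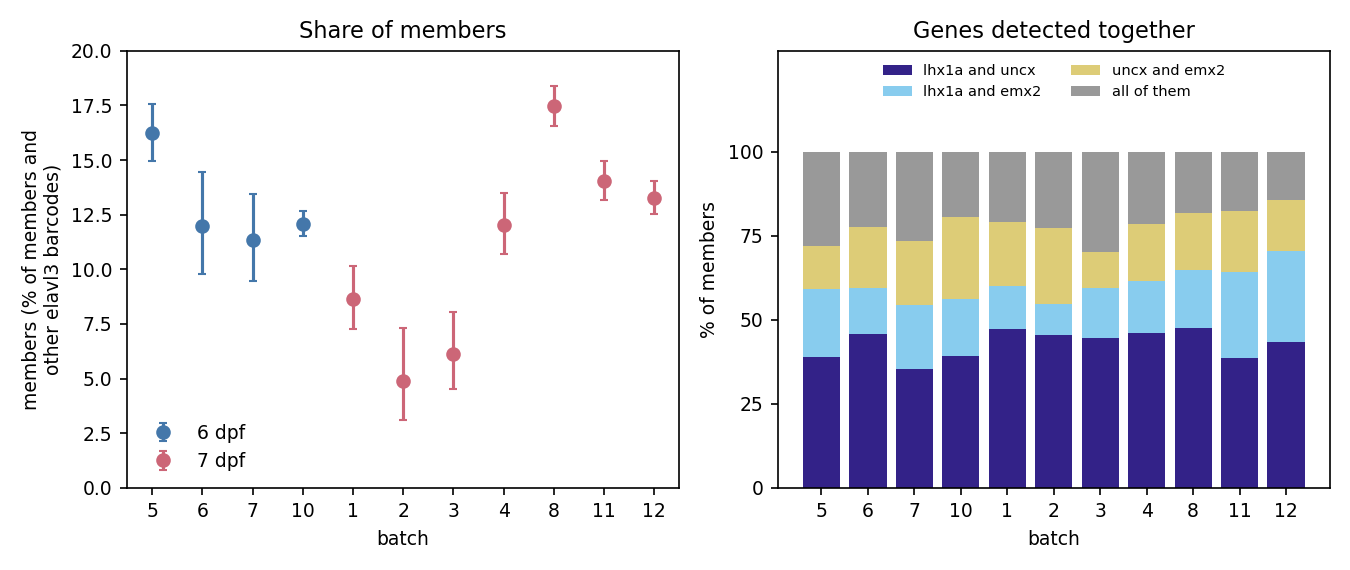
Left, members as a percentage of members and other *elavl3* barcodes in each batch, with exact binomial 95% intervals (counting error only), for 6 dpf (blue) and 7 dpf (red) batches. Right, the percentage of members with each combination of the chosen genes. The share of members ranged from 4.89% to 17.5%, and members with *lhx1a* and *uncx* but no *emx2* were the most frequent combination in every batch.

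The most frequent combination was *lhx1a* with *uncx* and without *emx2* (2423 members, 42.2%). *lhx1a* with *emx2* was found in 1161 members (20.2%), *uncx* with *emx2* in 1057 (18.4%) and all 3 genes in 1100 (19.2%). Across batches, *lhx1a* was detected in 75.6 to 89.4% of members, *uncx* in 72.9 to 90.9% and *emx2* in 52.4 to 64.7%. In barcodes with *elavl3*, the pairs were found together more often than the product of their shares within batch and depth stratum. The observed count was 2.14 times the expected for *lhx1a* with *uncx* (3267 barcodes), 1.98 times for *lhx1a* with *emx2* (2084) and 1.64 times for *uncx* with *emx2* (1992). In single batches these ratios ranged from 1.61 to 3.34, from 1.73 to 3.82 and from 1.42 to 2.48, as a description without a test.

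The cut at 2 genes fell within a gradual change. Just inside it, the 1160 barcodes with exactly 1 UMI of each of 2 genes contained *gad1b* in 47.8% and *tal1* in 48.2%. Just outside it, the 3683 barcodes with at least 2 UMIs of a single gene contained *gad1b* in 47.6% and *tal1* in 49.8%, and the 7837 with a single UMI of a single gene in 34.1% and 32.0%. *gad1b* was found in 20.1% of the 35912 barcodes with none of the genes and in 54.6% of the 1100 with all of them. Barcodes with at least 2 UMIs of a single gene therefore resembled those just inside the cut in these genes, at a higher depth (median 2661 against 2200.5 UMIs). Those with a single UMI of a single gene had lower shares. Barcodes outside the cut that had *elavl3* belonged to the comparison group.

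Members were mainly GABAergic by their transmitter genes. At least 1 UMI of *gad1b*, *gad2* or *slc32a1* was found in 84.7% of members and 50.4% of the others. As a background, 36.7% of 215 microglia-marked barcodes that were not members had such a gene, 28.4% without and 8.37% with *slc17a6a* or *slc17a6b*. A GABAergic gene without *slc17a6a* or *slc17a6b* was found in 4146 members (72.2%), both kinds in 718 (12.5%), a glutamatergic gene alone in 181 (3.15%) and neither in 696 (12.1%). The label of inhibitory neurons was thus met by most but not all members. *elavl3* itself was detected in 5273 members and missing in 468.

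*slc32a1* was found in 24.5% of members in the lowest batch, 54.2% in the median batch and 81.1% in the highest, against 8.82, 22.1 and 32.6% of the others. The mean difference was 34.8 percentage points (SD 9.18, n = 11), in the same direction in 11 of 11 batches (exact two-sided sign-flip test over 2048 patterns, p = 0.000977, the smallest possible, adjusted p = 0.00137). *gad1b* was found in 24.5, 46.1 and 72.6% of members in the lowest, median and highest batches and in 9.97, 19.8 and 34.7% of the others (difference 25.6 points, SD 8.57), and *gad2* in 22.3, 47.2 and 71.9% against 14.02, 25.7 and 38.9% (difference 23.4 points, SD 9.79). The ranges of both sets overlapped across batches, while every single batch had the higher share in members.

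Glutamatergic genes went the other way. *slc17a6a* was found in 0 to 7.85% of members (median 5.02%) and 3.03 to 23.6% of the others (median 15%), and *slc17a6b* in 2.13 to 14.7% (median 11.2%) and 8.96 to 30.4% (median 21.3%). Both were lower in 11 of 11 batches, by 10.2 points (SD 5.55) and 10.5 points (SD 4.61). The adjusted p of *gad1b*, *gad2*, *slc17a6a* and *slc17a6b* was also 0.00137, over the 7 genes tested by exact sign-flip. Microglia-marked barcodes contained *gad1b* in 14.9% (exact 95% interval 10.5 to 20.3%), *gad2* in 14.5% (10.1 to 19.8%) and *slc32a1* in 18.6% (13.7 to 24.3%). They contained *slc17a6a* in 5.43% (2.84 to 9.29%) and *slc17a6b* in 14.03% (9.73 to 19.3%). The shares of *slc17a6a* and *slc17a6b* in members were therefore within or below this background. Of the medians in the others, those of *gad1b* (19.8%) and *slc32a1* (22.1%) also lay within these intervals. Those of *gad2* (25.7%), *slc17a6a* (15%) and *slc17a6b* (21.3%) lay above.

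The glycine transporter gene *slc6a5* and *chata*, which encodes the enzyme of acetylcholine synthesis, were rare in both sets. *slc6a5* was found in 0.492% ± 0.536 of members and 0.721% ± 0.453 of the others (SD, n = 11; exact sign-flip adjusted p = 0.317), and *chata* in 2.40% ± 1.56 and 3.01% ± 1.27 (adjusted p = 0.201). After thinning to 1000 UMIs, *chata* passed the test (0.729% against 1.59%, adjusted p = 0.0125, lower in 9 of 11 batches). Thinning lowered every share but left the 5 called genes called, with *slc32a1* at 33.4% of members and 14.1% of the others. The rule was applied to the thinned counts, which gave 2408 members, and 197 members and 2821 of the others with fewer than 1000 UMIs were left out.

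**Figure D2:**
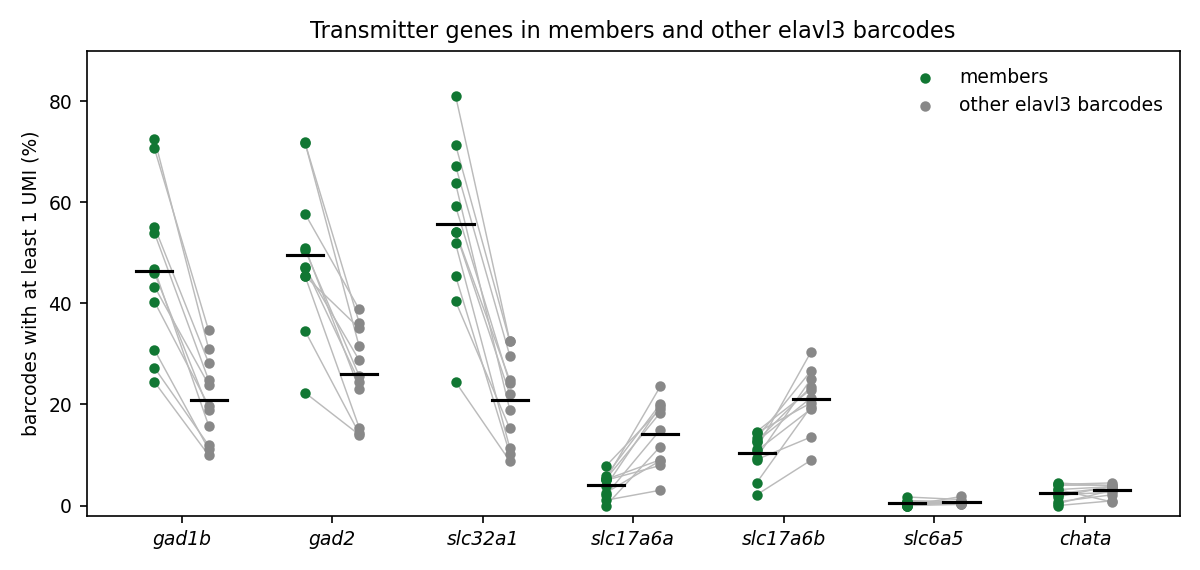
Percentage of barcodes with at least 1 UMI of each transmitter gene, in members (green) and other *elavl3* barcodes (grey). Each point is a batch, lines join the same batch and bars are means over 11 batches. *gad1b*, *gad2* and *slc32a1* were higher and *slc17a6a* and *slc17a6b* lower in members in 11 of 11 batches.

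Across all genes, UMIs were summed per batch over members and over the others and tested with edgeR's quasi-likelihood test with batch as a block. Of 12196 genes tested, 922 were higher in members (7.56%) and 1371 lower (11.2%) at an adjusted p under 0.05, so that 18.8% were called in either direction. The median log2 difference of all genes was -0.01. Levels below are UMIs per 10000 UMIs of the class in a batch. The comparison group contains neurons of many kinds and can also hold other cells with *elavl3* UMIs, so that each difference is one from a mixture.

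Transcription factors of midbrain GABAergic neurons were among the largest differences. Of the 12 tested genes of that list, 8 were higher and 2 lower, with a median log2 difference of 1.56. *gata2a* ranged from 2.43 to 4.2 (median 3.27) in members and 0.224 to 0.919 (median 0.601) in the others, and the batches of both sets did not overlap (log2 difference 2.50, SE 0.12, edgeR adjusted p = 1.58e-14). *tal1* ranged from 4.55 to 19.1 (median 10.5) in members and 0.559 to 3.6 (median 2.13) in the others, again without overlap (log2 difference 2.45, SE 0.18, edgeR adjusted p = 5.43e-11), and was detected in 64.3% of members and 23.3% of the others. *sox14*, which encodes a Sox factor, ranged from 1.26 to 3.7 (median 1.97) in members and 0.175 to 0.559 (median 0.435) in the others, without overlap (log2 difference 2.24, SE 0.13, edgeR adjusted p = 6.45e-13). *gata3* was higher in 11 of 11 batches, with 0.358 to 3.94 (median 2.68) in members and 0.245 to 1.097 (median 0.78) in the others (log2 difference 1.82, SE 0.10, edgeR adjusted p = 2.37e-13).

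The friend-of-GATA cofactor genes moved in the same direction. *zfpm2b* ranged from 2.6 to 6.82 (median 4.15) in members and 0.681 to 2.05 (median 1.2) in the others and did not overlap (log2 difference 1.81, SE 0.15, edgeR adjusted p = 3.22e-10). The log2 differences of *zfpm1* and *zfpm2a* were 1.37 (SE 0.10) and 0.90 (SE 0.09), and that of *tal2* was 1.74 (SE 0.17), in 9 of 11 batches. The genes of this list that were lower were *lmo3*, which encodes a LIM-only protein (-0.997, SE 0.10), and *helt*, a gene of GABAergic progenitors in the mouse (-0.69, SE 0.21), found in 1.69% of members. *ascl1a* at -0.26 (SE 0.16, adjusted p = 0.304) and *lmo1* at 0.23 (SE 0.09, adjusted p = 0.0801) did not pass the test.

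LIM-homeodomain genes differed among themselves. *lhx5*, the close relative of *lhx1a*, ranged from 0.358 to 1.39 (median 0.894) in members and 0.0524 to 0.21 (median 0.163) in the others, without overlap (log2 difference 2.42, SE 0.15, edgeR adjusted p = 1.52e-12). *lhx9* ranged from 0.535 to 3.18 (median 2.15) in members and 4.2 to 11.5 (median 6.88) in the others (log2 difference -2.01, SE 0.12, edgeR adjusted p = 1.15e-12) and *lhx2b* from 0 to 0.547 (median 0.335) in members and 0.559 to 2.02 (median 1.42) in the others (log2 difference -2.03, SE 0.13, edgeR adjusted p = 1.66e-12), so that both were lower in every batch and did not overlap. Of the 10 genes tested in the list of LIM homeobox genes and cofactors, 2 were higher and 3 lower, the others being *ldb1a* (0.37, SE 0.08) and *ldb2b* (-1.06, SE 0.10), which encode cofactors of LIM proteins.

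*uncx4.1*, a paralogue of *uncx*, had the largest positive difference of the genes that were higher in every batch, with 0.518 to 1.88 (median 1.29) in members and 0.0961 to 0.312 (median 0.18) in the others (log2 difference 2.53, SE 0.14, edgeR adjusted p = 1.89e-13). How reads shared between both copies were counted was not examined, so this value is uncertain and is close to what the rule used.

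Among 14 tested genes of midbrain patterning, 7 were higher and 4 lower. *otx2b*, a homeobox gene of forebrain and midbrain, ranged from 1.38 to 3.62 (median 1.45) in members and 0.359 to 1.04 (median 0.657) in the others (log2 difference 1.41, SE 0.10, edgeR adjusted p = 2.75e-11), without overlap. The dorsal midbrain genes *pax7a* (1.17, SE 0.13) and *pax7b* (1.17, SE 0.11) were higher, as were *otx1* (1.1, SE 0.10), *dmbx1a* (0.86, SE 0.19), *dmbx1b* (1.38, SE 0.19) and *en2b* (0.37, SE 0.09). Among the lower genes were *meis2b* (-2.10, SE 0.17), *barhl2* (-2.09, SE 0.12) and *tcf7l2* (-1.80, SE 0.11). *tcf7l2*, which encodes an effector of Wnt signalling, ranged from 0.716 to 3.68 (median 2.37) in members and 3.48 to 10.9 (median 8.67) in the others, so that the sets overlapped although members were lower in 11 of 11 batches.

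**Figure D3:**
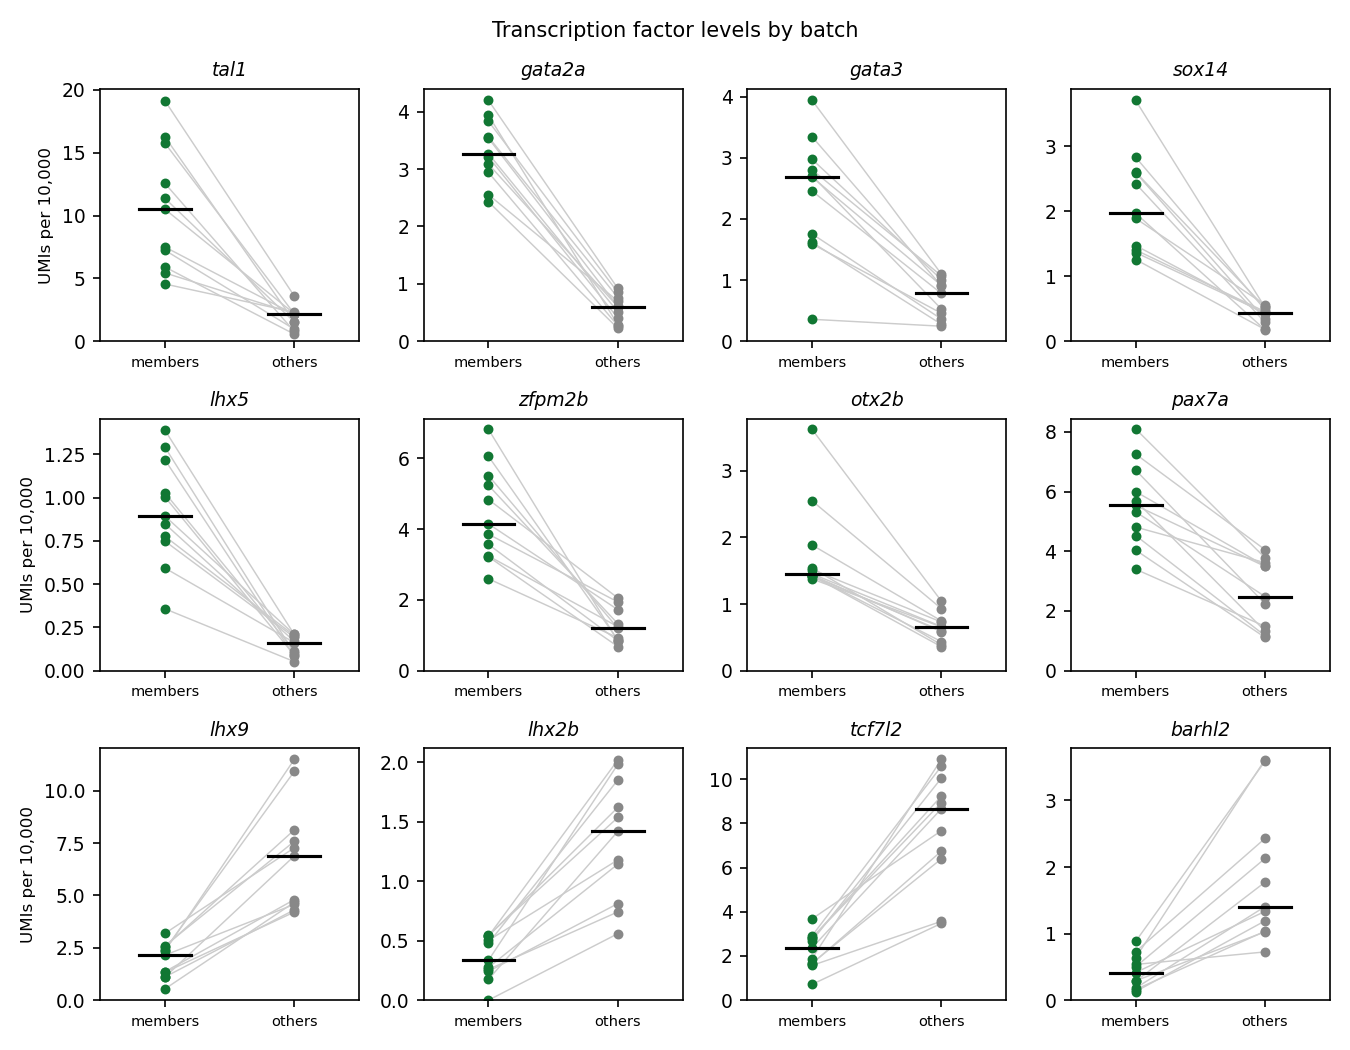
Levels of 12 transcription factor or cofactor genes, in UMIs per 10000, in members (green) and other *elavl3* barcodes (grey). Each point is a batch, lines join the same batch and bars are medians over 11 batches, with axes starting at 0. The genes of the top rows were higher in members and those of the bottom row lower, and for *gata3* the lowest member batch, at 0.358, lay within the range of the others.

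The remaining genes that rose most in all batches were *nxph2b*, which encodes a neurexophilin (2.30, SE 0.12), the zinc finger genes *znf385c* (1.82, SE 0.12) and *scrt1a* (1.57, SE 0.12), *emid1* (1.67, SE 0.16), *si:dkey-175g6.2* (1.57, SE 0.12), *slc32a1* (1.53, SE 0.09), the neurexin gene *nrxn3a* (1.37, SE 0.10) and *gad1b* (1.37, SE 0.09). *znf385c* ranged from 2.91 to 7.97 (median 4.29) in members and 0.594 to 3.14 (median 1.14) in the others, so that the sets overlapped although members were higher in 11 of 11 batches. The remaining genes that fell most were *shox* (-2.16, SE 0.12), *barhl1a* (-2.12, SE 0.14), *pou4f1* (-2.12, SE 0.12), *nrn1a* (-2.09, SE 0.14), *tfap2d* (-2.04, SE 0.13) and *sv2bb* (-1.99, SE 0.13). Most of these encode transcription factors, whereas *nrn1a* encodes neuritin and *sv2bb* a synaptic vesicle glycoprotein.

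Of the 7 genes of GABA synthesis and transport, 6 were higher, with a median log2 difference of 1.24. The plasma membrane transporter gene *slc6a1b* ranged from 6.29 to 33.3 (median 14.3) in members and 1.65 to 13.2 (median 6.37) in the others (log2 difference 1.24, SE 0.11, edgeR adjusted p = 2.40e-09), and *slc6a11b*, found in 1.97% of members, was lower (-0.78, SE 0.21). Of 16 tested genes from a list of markers of tectal neuron types, most of them inhibitory, 11 were higher and 3 lower. *chodl* (2.27, SE 0.15), *rpp25b* (2.28, SE 0.18), *ndnf* (1.36, SE 0.14), *esrrb* (1.28, SE 0.12) and *cxcl14* (1.25, SE 0.12) were higher, and *sp5l* (-1.65, SE 0.16), *atf5b* (-0.73, SE 0.13) and *itpr1b* (-0.70, SE 0.13) lower. Of these, *sp5l* and *atf5b* mark excitatory types. That list was drawn from markers described for these samples and is not independent evidence of its direction.

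Neuropeptide genes were found in few members. Of 14 tested, 7 were higher and 2 lower. *npy*, the gene of neuropeptide Y, was detected in 4.89% of members and 3.02% of the others and ranged from 0 to 6.65 (median 1.79) in members and 0.115 to 0.601 (median 0.287) in the others, higher in 9 of 11 batches (log2 difference 2.79, SE 0.28, edgeR adjusted p = 1.69e-08). *cart3* (2.25, SE 0.39), *npb* (1.03, SE 0.17), *pnocb* (0.84, SE 0.24), *cort* (0.80, SE 0.26), *pnoca* (0.72, SE 0.18) and *penkb* (0.44, SE 0.15) were also higher. They were detected in 1.38 to 5.75% of members, and *cart3*, *pnocb* and *cort* were higher in only 7, 6 and 7 of 11 batches. *adcyap1b*, the gene of the peptide PACAP, was lower, with 0 to 2.16 (median 0.605) in members and 1.34 to 4.68 (median 2.56) in the others (log2 difference -1.81, SE 0.17, edgeR adjusted p = 5.41e-09), as was *cckb* (-1.48, SE 0.16).

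Among receptor and channel genes, more were lower than higher in members. Of 22 genes of GABA and glycine receptors, 1 was higher and 6 lower, of 28 genes of glutamate receptors 2 and 9, and of 20 potassium channel genes 1 and 6. Outside these families, 0 of 14 immediate early genes were higher and 2 lower. The median log2 differences of these lists, in the same order, were -0.07, -0.17, -0.04 and -0.06. *glra2* (0.69, SE 0.18), *grin2ca* (0.73, SE 0.11), *grin3ba* (0.38, SE 0.12) and *kcnc1b* (0.72, SE 0.12) were higher, and *grid1a* (-0.82, SE 0.11) and *grid1b* (-0.79, SE 0.11), which encode delta-type glutamate receptors, were lower. Over all genes tested, 7.56% were higher and 11.2% lower.

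Genes of other cell types moved with these differences. The summed level of the 7 radial glial genes was 3.02 to 16.2 UMIs per 10000 in members (median 6.56) and 5.65 to 37.6 in the others (median 13.2), and 4 of 5 tested were lower. Of 10 progenitor genes tested, 7 were lower and *sox2* was higher (0.86, SE 0.15). The 7 oligodendrocyte genes summed to 0.181 to 0.838 (median 0.538) against 0.641 to 10.8 (median 2.23), the 7 microglial genes to 0.121 to 7.27 (median 0.578) against 0.157 to 25.7 (median 1.77) and the 7 erythrocyte genes to 0.0605 to 2.09 (median 0.396) against 0.359 to 13.3 (median 1.04). All tested genes of the last 3 lists were lower in members (4, 2 and 5). No gene of these 5 lists was without a UMI in members, and their part in the results was not tested.

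Of the 13 tested genes of postmitotic neurons, 6 were higher and 5 lower, among them *elavl4* (0.43, SE 0.08) and *rbfox3b* (-1.099, SE 0.11). Of 14 genes of newborn neurons, 4 were higher and 4 lower, with *sox11b* at 0.40 (SE 0.09) and *neurod1*, a gene of the glutamatergic lineage in other brain regions, at -1.85 (SE 0.15). At matched depth of the others, 779 genes were higher and 981 lower of 9143 tested. After thinning to 1000 UMIs, 269 were higher and 471 lower of 6245 tested, of which 240 and 414 were also called in the full counts. All 25 genes with the largest differences that had the same direction in every batch were called under both of these settings.

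To separate what members share with GABAergic neurons in general, 2705 members with *gad1b* and without *slc17a6a* or *slc17a6b* were compared with 7246 other *elavl3* barcodes chosen in the same way, in 10 batches. Microglia-marked barcodes contained *gad1b* in 14.9% (exact interval 10.5 to 20.3%), and the median share in the others, 19.8%, lay within that interval. Detection of *gad1b* can therefore stem from background, and the comparison set can hold barcodes that are not GABAergic neurons. How many it holds was not tested. Of 6516 genes tested, 409 were higher in members (6.28%) and 571 lower (8.76%). Factor genes again had large differences, and of 10 tested midbrain GABA determinants 7 were higher and 1, *lmo3*, lower (-0.58, SE 0.09). *gata2a* ranged from 2.44 to 5.28 (median 3.55) in members and 0.852 to 2.09 (median 1.07) in the others, without overlap (log2 difference 1.34, SE 0.10, edgeR adjusted p = 1.18e-11). *tal1* ranged from 4.67 to 19.2 (median 12.2) in members and 2.22 to 6.57 (median 4.5) in the others (log2 difference 1.12, SE 0.17, edgeR adjusted p = 7.22e-06) and *sox14* from 1.11 to 3.89 (median 2.45) in members and 0.471 to 1.62 (median 1.04) in the others (log2 difference 1.12, SE 0.11, edgeR adjusted p = 2.11e-09), each with some overlap but higher in members in 10 of 10 batches.

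*nxph2b* had the largest positive difference of the genes that were higher in every batch, with 0.887 to 2.0 (median 1.53) in members and 0.157 to 0.723 (median 0.485) in the others, without overlap (log2 difference 1.58, SE 0.10, edgeR adjusted p = 1.08e-13). Besides *gata2a*, *tal1* and *sox14*, the other leading genes of this kind were *uncx4.1* (1.38, SE 0.13), *lhx5* (1.14, SE 0.12), *si:ch211-106h4.9* (0.997, SE 0.14), the orphan nuclear receptor gene *esrrga* (0.97, SE 0.09), the forkhead genes *foxp4* (0.97, SE 0.11) and *foxp2* (0.71, SE 0.10), *scrt1a* (0.96, SE 0.11), *zfpm2b* (0.95, SE 0.11), *si:dkey-175g6.2* (0.79, SE 0.10), *zfpm1* (0.76, SE 0.09) and *ppp1r1b* (0.73, SE 0.11), which encodes the phosphatase inhibitor DARPP-32. *foxp4* ranged from 5.33 to 20.6 (median 10.2) in members and 3.26 to 8.55 (median 5.26) in the others.

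The genes that fell most among GABAergic barcodes were *her6*, a Hes-type repressor (-1.77, SE 0.20), *barhl2* (-1.77, SE 0.13), the radial glial gene *fabp7a* (-1.71, SE 0.20), *lhx9* (-1.60, SE 0.12), *nrn1a* (-1.54, SE 0.13), *lhx2b* (-1.52, SE 0.13), the cyclin gene *ccnd2a* (-1.46, SE 0.13), *bnc2* (-1.34, SE 0.12), *adcyap1b* (-1.29, SE 0.11) and *ebf1b* (-1.26, SE 0.10). *fabp7a* ranged from 0.151 to 3.2 (median 1.24) in members and 0.275 to 14.6 (median 7.48) in the others, lower in 10 of 10 batches. All 4 tested radial glial genes and 4 of 6 progenitor genes were lower in members, while 6 of 13 genes of newborn neurons were higher and 2 lower. *neurod1* was among the latter (-1.02, SE 0.16). Whether barcodes with background *gad1b* take part in these differences was not tested.

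Of 5 tested genes of GABA synthesis and transport, 3 were higher and none lower. *slc32a1* (0.44, SE 0.11), *slc6a1a* (0.38, SE 0.11) and *slc6a1b* (0.48, SE 0.11) were higher, *gad2* at 0.26 (SE 0.11, adjusted p = 0.112) and *gad1a* at 0.16 (SE 0.14, adjusted p = 0.504) did not pass, and *gad1b* had chosen the barcodes. Of 12 markers on the list of tectal neuron types, 9 were higher and 1 lower. *npy* was higher (2.00, SE 0.25, 9 of 10 batches) and *penkb*, the gene of an enkephalin precursor, lower (-0.61, SE 0.16). Of 28 glutamate receptor genes 1 was higher and 14 lower, with a median log2 difference of -0.27. After thinning, 65 genes were higher and 64 lower of 2386 tested, and of the 25 leading genes 17 were still tested, all of them called. Without batch 10, 246 genes were higher and 376 lower of 5519 tested, and without batch 11, 377 of 5512 were lower.

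Members were then compared by the pair of genes detected in them. The third gene had no UMI in these classes, but it can still be expressed. The 1100 members with all 3 genes were left out, and *lhx1a*/*uncx*, *lhx1a*/*emx2* and *uncx*/*emx2* members were compared in the 9 batches with at least 10 barcodes of each. These 3 comparisons share their classes with each other. Of 4478 genes tested, 244 were higher (5.45%) and 184 lower (4.11%) in *lhx1a*/*uncx* than in *uncx*/*emx2* members (9.56% either way), 199 higher (4.44%) and 158 lower (3.53%) in *lhx1a*/*uncx* than in *lhx1a*/*emx2* members, and 207 higher (4.62%) and 278 lower (6.21%) in *lhx1a*/*emx2* than in *uncx*/*emx2* members.

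*uncx*/*emx2* members had the highest median levels of *nfixb* and *nfia*, which encode factors of the nuclear factor I family, and of *satb1b*, which encodes a chromatin organizer. *nfixb* ranged from 0.547 to 2.86 (median 1.11) in *lhx1a*/*uncx* and 1.16 to 15.02 (median 5.53) in *uncx*/*emx2* members, lower in 9 of 9 batches in the former (log2 difference -2.67, SE 0.16, edgeR adjusted p = 1.04e-15). It ranged from 0.546 to 3.5 (median 1.84) in *lhx1a*/*emx2* members (log2 difference -2.30, SE 0.17, edgeR adjusted p = 6.21e-13 against *uncx*/*emx2*). *nfia* ranged from 0.413 to 2.17 (median 1.11) in *lhx1a*/*uncx* and 1.54 to 10.4 (median 5.25) in *uncx*/*emx2* members (log2 difference -2.39, SE 0.18, edgeR adjusted p = 3.91e-13). *satb1b* ranged from 0.348 to 1.08 (median 0.547) in *lhx1a*/*uncx* and 1.16 to 5.6 (median 3.48) in *uncx*/*emx2* members, without overlap (log2 difference -2.41, SE 0.17, edgeR adjusted p = 1.06e-13).

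*lhx1a*/*uncx* members had the highest median levels of *nxph2b*, *mdga1* and *ndnf*. *nxph2b* ranged from 0.554 to 2.78 (median 2.07) in *lhx1a*/*uncx* and 0 to 0.79 (median 0.448) in *uncx*/*emx2* members (log2 difference 2.15, SE 0.18, edgeR adjusted p = 1.79e-11) and was also above *lhx1a*/*emx2* members (1.498, SE 0.17). *mdga1*, which encodes a membrane-anchored adhesion protein, ranged from 1.31 to 11.1 (median 3.32) in *lhx1a*/*uncx* and 0.819 to 1.94 (median 1.38) in *lhx1a*/*emx2* members (log2 difference 1.92, SE 0.18, edgeR adjusted p = 2.59e-10). *ndnf*, which encodes a secreted neurotrophic factor, ranged from 0.35 to 2.33 (median 0.956) in *lhx1a*/*uncx* and 0 to 0.373 (median 0.148) in *lhx1a*/*emx2* members (log2 difference 2.76, SE 0.24, edgeR adjusted p = 6.71e-11). *nptx1l* (1.43, SE 0.14), *ppp1r1b* (1.28, SE 0.17), *zfhx3* (1.22, SE 0.13), *zfhx4* (1.301, SE 0.11), *calb2a* (1.84, SE 0.27), *asic1b* (1.67, SE 0.16), *cdh18a* (1.36, SE 0.16), *adarb2* (1.28, SE 0.15) and *dmbx1a* (1.31, SE 0.23) were also higher than in *uncx*/*emx2* members.

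*lhx1a*/*emx2* members stood out by *chodl*, the gene of chondrolectin. It ranged from 0.959 to 3.28 (median 1.48) in *lhx1a*/*emx2* and 0 to 0.354 (median 0.135) in *uncx*/*emx2* members, without overlap (log2 difference 3.26, SE 0.26, edgeR adjusted p = 4.60e-12), and was lower in *lhx1a*/*uncx* members than in *lhx1a*/*emx2* members in 9 of 9 batches (log2 difference -2.33, SE 0.20, edgeR adjusted p = 6.71e-11). *spon1a*, the gene of a secreted spondin, ranged from 0.391 to 3.53 (median 1.42) in *lhx1a*/*emx2* and 0 to 0.807 (median 0.441) in *uncx*/*emx2* members (log2 difference 1.78, SE 0.19, edgeR adjusted p = 1.15e-08), and between *lhx1a*/*uncx* and *lhx1a*/*emx2* members its log2 difference was 0.20 (SE 0.15, adjusted p = 0.548). *npy* was higher in *lhx1a*/*emx2* (1.34, SE 0.36) and in *lhx1a*/*uncx* members (1.57, SE 0.34) than in *uncx*/*emx2* members. The glutamate receptor gene *grin2bb* (-0.81, SE 0.12) and the receptor phosphatase gene *ptprub* (-1.22, SE 0.11) were lower in *lhx1a*/*uncx* than in *lhx1a*/*emx2* members, and *otx2b* (0.82, SE 0.12), *sox14* (0.65, SE 0.11), *sox2* (0.90, SE 0.16) and *cxcl14* (0.96, SE 0.14) higher.

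Of 6 tested genes of GABA synthesis and transport, 4 were higher in *lhx1a*/*emx2* than in *uncx*/*emx2* members and 3 higher in *lhx1a*/*uncx* than in *uncx*/*emx2* members, and none was lower. *gata3* was higher in *lhx1a*/*emx2* than in *uncx*/*emx2* members in 9 of 9 batches, with 2.18 to 4.69 (median 3.23) in *lhx1a*/*emx2* and 1.16 to 2.69 (median 2.07) in *uncx*/*emx2* members (log2 difference 0.68, SE 0.11, edgeR adjusted p = 1.82e-05), and *gata2a* (0.56, SE 0.13), *gad1b* (0.51, SE 0.13) and *gad2* (0.61, SE 0.12) were higher in 7, 8 and 8 of 9 batches. *tal1* was lower in 6 of 9 batches (-0.52, SE 0.13). Of 9 tested midbrain GABA determinants, 3 were higher in *lhx1a*/*emx2* than in *uncx*/*emx2* members and 3 lower. *meis2a* (-1.15, SE 0.13), *jun* (-1.14, SE 0.17) and *gria1b* (-1.06, SE 0.17) were also lower in *lhx1a*/*emx2* members. Between *lhx1a*/*uncx* and *lhx1a*/*emx2* members, none of the 6 tested genes of GABA synthesis and transport passed edgeR's test, and their median log2 difference was -0.10. The members with *uncx* and *emx2* had somewhat more UMIs (median 2907) than those with *lhx1a* and *uncx* (2639) or *lhx1a* and *emx2* (2650). After thinning to 1000 UMIs, 1162 genes were tested in each of the 3 comparisons. Of these, 27, 27 and 28 were higher and 10, 27 and 32 lower. Of the 25 leading genes of each, 9, 13 and 9 were still tested after thinning and 7, 12 and 6 called. The counts also changed when single batches were left out, and so did the number of genes tested. It was 3343, 3267, 3212 and 3214 without batch 8, 10, 11 and 12, and 6134 and 6033 without batch 6 and 7. Between *lhx1a*/*uncx* and *uncx*/*emx2* members, 140, 135 and 139 genes were higher and 105, 111 and 114 lower without batch 10, 11 and 12. Between *lhx1a*/*uncx* and *lhx1a*/*emx2* members, 117, 112, 84 and 91 were higher and 91, 79, 74 and 89 lower without batch 8, 10, 11 and 12, and 318 and 353 were higher without batch 6 and 7. Between *lhx1a*/*emx2* and *uncx*/*emx2* members, 126 were higher without batch 10, and 128 were higher and 140 lower without batch 11.

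**Figure D4:**
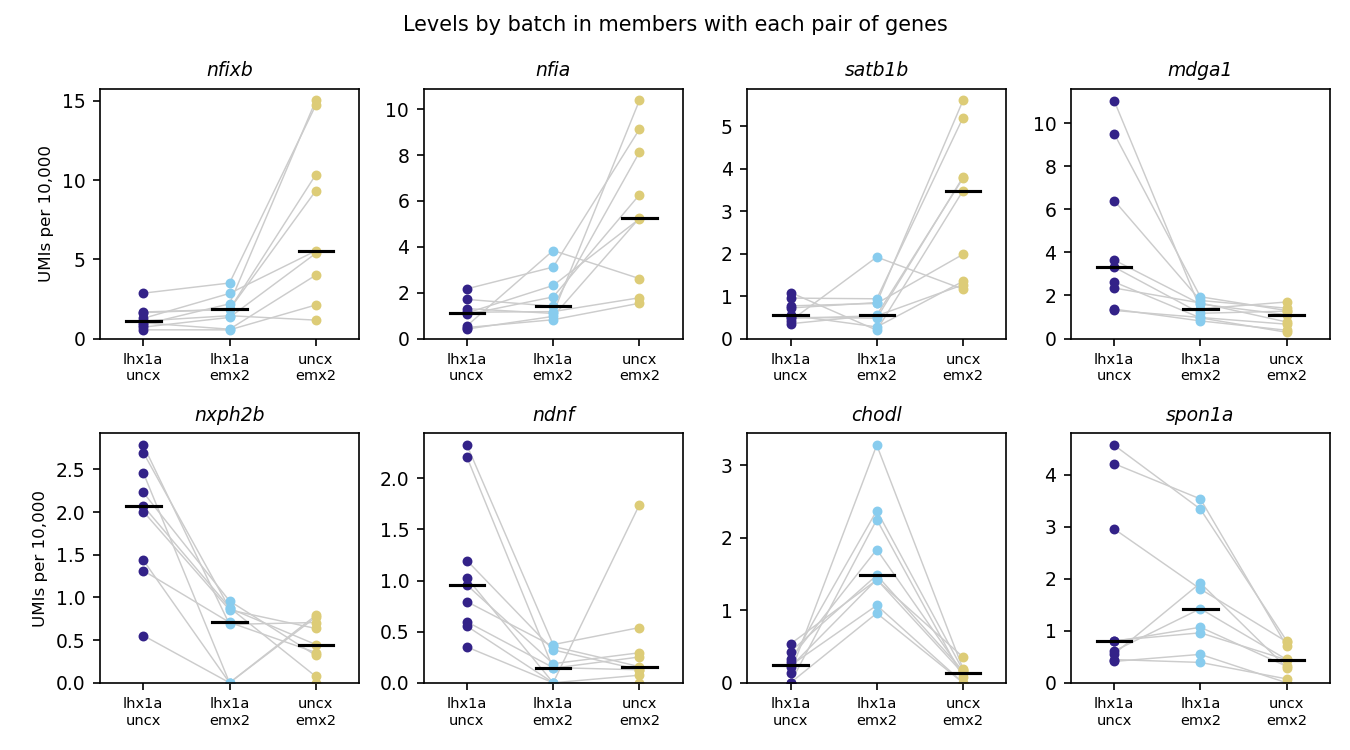
Levels of 8 genes, in UMIs per 10000, in members with each pair of the chosen genes. Each point is a batch, lines join the same batch and bars are medians over the 9 batches with all classes, with axes starting at 0. *nfixb*, *nfia* and *satb1b* had their highest medians in *uncx*/*emx2* members, *mdga1*, *nxph2b* and *ndnf* in *lhx1a*/*uncx* members and *chodl* in *lhx1a*/*emx2* members.

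Members were also compared by detection of *tal1* and *nxph2b*. Of 5741 members, 3024 had *tal1* without *nxph2b*, 393 had *nxph2b* without *tal1*, 668 had both and 1656 neither. Most members with *nxph2b* thus also had *tal1*, and a gene without a UMI in a barcode can still be expressed. In the 6 batches with at least 10 barcodes of each kind, 2689 members with *tal1* and 375 with *nxph2b* were compared. Of 5951 genes tested, 460 were higher in members with *tal1* (7.73%) and 295 in members with *nxph2b* (4.96%).

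Of 10 tested genes of midbrain patterning, 7 were higher in members with *tal1* and none was lower. *en2b*, an engrailed gene, ranged from 0.595 to 3.89 (median 2.88) in members with *tal1* and 0.327 to 1.18 (median 0.499) in members with *nxph2b* (log2 difference 1.62, SE 0.23, edgeR adjusted p = 2.42e-05). The zinc finger homeobox genes *zfhx3* and *zfhx4* ranged from 3.52 to 10.8 (median 8.4) in members with *tal1* and 1.88 to 3.78 (median 3.03) in members with *nxph2b* (log2 difference 1.65, SE 0.19, edgeR adjusted p = 3.25e-06), and from 6.23 to 8.93 (median 7.92) in members with *tal1* and 1.03 to 4.25 (median 2.93) in members with *nxph2b* (log2 difference 1.61, SE 0.19, edgeR adjusted p = 3.25e-06), the latter without overlap. *nfixb* (2.17, SE 0.27), *nfixa* (1.78, SE 0.25), *sox12* (2.14, SE 0.31), *sox5* (1.75, SE 0.25), *TCF4* (1.62, SE 0.25) and the cell cycle inhibitor gene *cdkn1ca* (1.89, SE 0.34) were also higher. So were *emid1* (2.37, SE 0.31), *si:dkey-215k6.1* (2.23, SE 0.30), *pxdn* (1.97, SE 0.26), the calretinin gene *calb2b* (1.85, SE 0.25), the netrin receptor gene *unc5b* (1.83, SE 0.36) and *zgc:171482* (1.54, SE 0.20). By level, *unc5b* and *nfixb* were lower with *tal1* in batch 5 (0.347 against 0.472 and 1.883 against 1.888). The level of *zgc:171482* was lower with *tal1* in batch 5 (1.80 against 1.89) and batch 7 (1.29 against 1.37). *pax7a* (1.52, SE 0.19) was higher in 6 of 6 batches, and *pax7b* (1.096, SE 0.18) and *tal2* (1.09, SE 0.34) in 5 of 6.

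In members with *nxph2b*, *mdga1*, *ndnf* and *thsd7bb* were higher in 6 of 6 batches. *mdga1* ranged from 0.991 to 2.28 (median 1.76) in members with *tal1* and 6.37 to 16.3 (median 9.54) in members with *nxph2b* (log2 difference -2.45, SE 0.17, edgeR adjusted p = 1.34e-09), *ndnf* from 0.15 to 0.74 (median 0.306) in members with *tal1* and 1.23 to 5.82 (median 2.77) in members with *nxph2b* (log2 difference -2.68, SE 0.22, edgeR adjusted p = 2.09e-08) and *thsd7bb* from 0.0534 to 0.385 (median 0.202) in members with *tal1* and 0.685 to 1.96 (median 1.43) in members with *nxph2b* (log2 difference -2.58, SE 0.23, edgeR adjusted p = 4.52e-08), and the batches did not overlap for any of these. The tachykinin receptor gene *tacr1a* ranged from 0.056 to 0.289 (median 0.128) in members with *tal1* and 0.342 to 2.66 (median 1.09) in members with *nxph2b*, also without overlap (log2 difference -3.30, SE 0.28, edgeR adjusted p = 2.09e-08). The lowest levels of *tacr1a* (0.342) and *thsd7bb* (0.685) with *nxph2b* were both in batch 7. That batch held 11 such members, so these levels rest on very few UMIs. *FP236331.1* (-3.39, SE 0.31), the cerebellin gene *cbln1* (-2.60, SE 0.36), *si:dkey-57c15.1* (-2.42, SE 0.23), *cdh23* under ENSDARG00000094454 (-2.16, SE 0.22), *nptx1l* (-2.14, SE 0.22) and *spon1a* (-2.11, SE 0.19) were likewise lower in members with *tal1*. Of 13 markers on the list of tectal neuron types, 2 were higher and 8 lower in members with *tal1*, with a median log2 difference of -1.35.

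Of 6 tested genes of GABA synthesis and transport, 1 passed, *gad1a*, which was higher in members with *tal1* (1.25, SE 0.25), while *gad1b* stood at -0.32 (SE 0.16, adjusted p = 0.23), *gad2* at -0.08 (SE 0.18, adjusted p = 0.844) and *slc32a1* at -0.25 (SE 0.16, adjusted p = 0.346). *gata2a* (-0.64, SE 0.18, 5 of 6 batches) and *gata3* (-0.56, SE 0.16, 6 of 6 batches) were lower in members with *tal1*, and *sox14* stood at 0.04 (SE 0.17, adjusted p = 0.924) and *lhx5* at 0.11 (SE 0.24, adjusted p = 0.841). Thinning to 1000 UMIs left 120 genes higher and 102 lower of 1325 tested, and of the 25 leading genes 7 were still tested, all of them called. Without batch 10, 250 genes were higher and 177 lower of 5532 tested, and without batch 11, 242 and 170 of 5927.

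**Figure D5:**
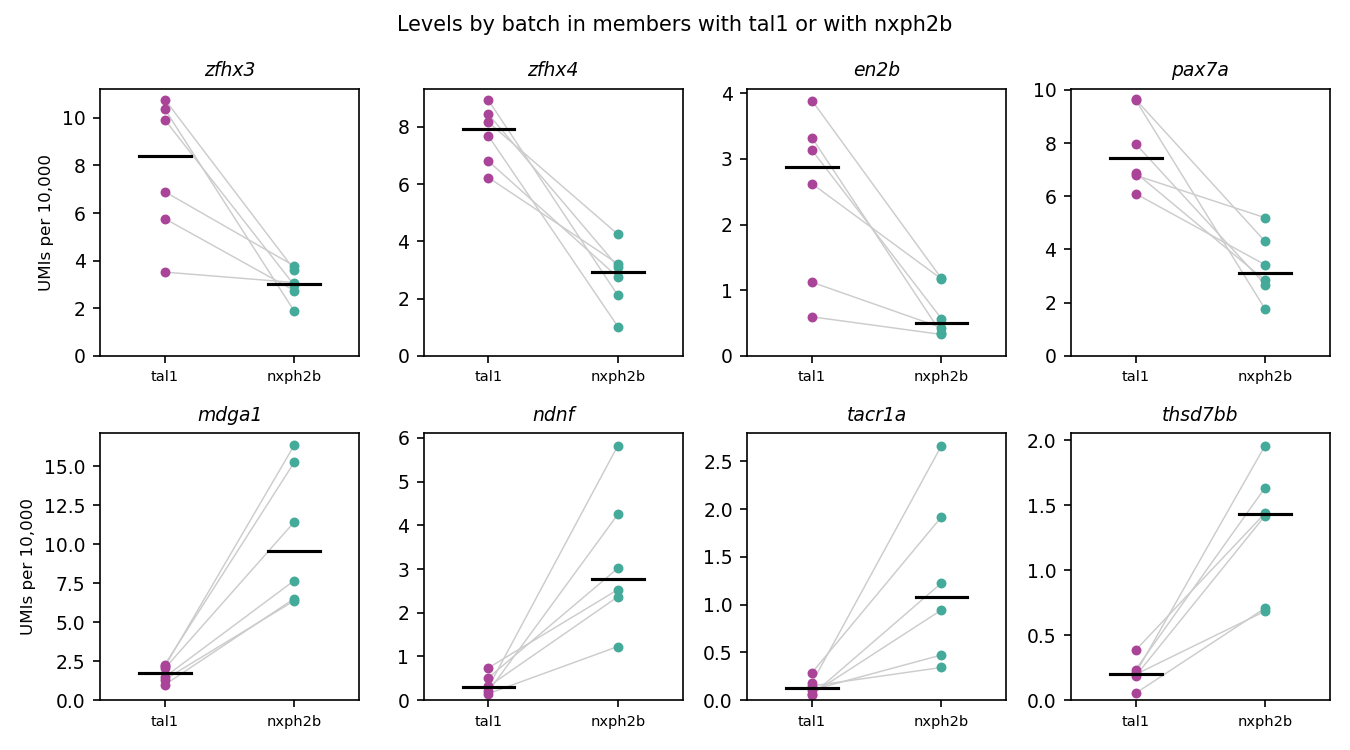
Levels of 8 genes, in UMIs per 10000, in members with *tal1* and without *nxph2b* (purple) and members with *nxph2b* and without *tal1* (teal). Each point is a batch, lines join the same batch and bars are medians over 6 batches, with axes starting at 0. *zfhx3*, *zfhx4*, *en2b* and *pax7a* were higher with *tal1*, and *mdga1*, *ndnf*, *tacr1a* and *thsd7bb* higher with *nxph2b*, in 6 of 6 batches.

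Members were also compared with barcodes chosen by *tal1*, *cxcl14* and *otx1* in the same way. At least 2 of these genes were found in 5893 barcodes, of which 1716 were also members (29.9% of members and 29.1% of that set). Leaving the shared barcodes out, 4025 members and 4177 of the other set were compared in 11 batches, and of 5227 genes tested 722 were higher in members (13.8%) and 571 lower (10.9%). Without batch 10, 474 of 3939 tested were higher.

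Of 8 tested midbrain GABA determinants, 5 were higher in members and 2 lower. Members were higher in *gata2a*, with 2.44 to 4.48 (median 3.38) in members and 0.171 to 2.38 (median 1.13) in the comparison barcodes (log2 difference 1.29, SE 0.13, edgeR adjusted p = 2.91e-07), without overlap, and in *tfap2b*, which encodes an AP-2 factor, with 0.939 to 4.69 (median 1.96) in members and 0.336 to 1.92 (median 0.842) in the comparison barcodes (log2 difference 1.34, SE 0.13, edgeR adjusted p = 1.83e-07). *si:ch73-386h18.1* (1.196, SE 0.10), *uncx4.1* (1.17, SE 0.15), *chd4a* (1.13, SE 0.15), *lhx5* (1.103, SE 0.15), *en2b* (1.099, SE 0.12), *zfhx4* (1.04, SE 0.12), *zfpm2b* (0.98, SE 0.15), *si:dkey-56m19.5* (1.07, SE 0.12), the cadherin gene *cdh6* (0.96, SE 0.15) and *CU929544.1* (0.92, SE 0.11) were also higher in every batch. The genes of newborn or growing neurons *insm1a* (0.98, SE 0.17), *tubb5* (0.97, SE 0.17) and *gap43* (0.95, SE 0.15) were likewise higher, and of 13 tested genes of newborn neurons 10 were higher and 1, *neurod1*, lower.

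None of the 6 tested genes of GABA synthesis and transport passed edgeR's test between these sets, and their median log2 difference was -0.18. *gad1b* was at -0.22 (SE 0.13, adjusted p = 0.223) and *slc32a1* at 0.02 (SE 0.10, adjusted p = 0.928). Lower in members were *mt2*, a metallothionein gene (-2.25, SE 0.24), *cebpd* (-1.89, SE 0.22), *ano2b* (-1.63, SE 0.19), *rergla* (-1.57, SE 0.18), *il1rapl2* (-1.38, SE 0.16), *whrnb* (-1.22, SE 0.17), *rasa4* (-1.20, SE 0.15), *qkib* (-1.20, SE 0.20), the release-site gene *rims4* (-1.1, SE 0.13) and *sipa1l1* (-1.09, SE 0.14). *il1rapl2* ranged from 0.631 to 3.84 (median 1.88) in members and 1.04 to 15.12 (median 5.06) in the comparison barcodes, lower in 11 of 11 batches. All 4 radial glial genes tested (median log2 difference -1.39) and 6 of 12 immediate early genes, among them *egr1* (-1.02, SE 0.14), were lower in members, as were 11 of 27 glutamate receptor genes, none of which was higher. Whether radial glial RNA takes part in these differences was not tested.

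The share of members did not differ detectably between ages. Members were 11.4 to 16.2% (median 12.0%) of members and other *elavl3* barcodes in the 4 batches at 6 dpf and 4.89 to 17.5% (median 12.0%) in the 7 batches at 7 dpf, and the ages overlapped. The means were 12.9% ± 2.24 and 10.9% ± 4.55 (SD; difference -1.98 points, exact two-sided permutation over 330 splits, p = 0.430). Among the HiSeq batches alone the means were 13.2% ± 2.66 (n = 3) and 9.83% ± 5.07 (n = 5), with p = 0.375 in an exact permutation over 56 splits. The NovaSeq batches held 1 batch at 6 dpf (12.1%) and 2 at 7 dpf (14.05 and 13.3%), too few for a test.

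Within members, no gene passed edgeR's test between ages among 8672 tested with sequencer as a covariate (0% called). At an unadjusted p under 0.05, 146 of the 8672 genes were higher and 367 lower at 7 dpf. A share of about 0.05 of all genes passes that cut when nothing differs. DESeq2 called 1 gene, *tent5d* (log2 difference 1.41, SE 0.30, adjusted p = 0.0208). Without batch 1, edgeR called *tspan7*, *sox12*, *fads2* and *crabp1a* lower at 7 dpf, and without batch 5 *gpr155a*. Without batch 8, whose age labels disagree, no gene was called, and a fit with batch 8 at 6 dpf was not run. Smaller changes were not detectable with 4 and 7 batches.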

How the data were processed

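Droplet-based 3′ single-cell libraries of 11 batches were analysed, from 12 count matrices (2 of them for batch 11). Several other batches were also listed as more than 1 sample but had a single matrix. The deposited values are whole-number UMI counts per gene and barcode, made by the authors with Cell Ranger 7.1.0 on GRCz11 per the labels, without normalization. Batches were grouped by the age in the labels. Batch 8, given as 6 dpf in 1 line and as 7 dpf in others, was taken as 7 dpf. The sequencer was assigned by batch number from the study's methods. The batches labelled 10, 11 and 12 carry other numbers than those given there for the NovaSeq and were assigned to it by elimination.

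Barcodes with fewer than 600 or more than 4000 genes, more than 7500 UMIs or over 10% of UMIs from mitochondrial genes were discarded, which left 815 to 14524 per batch. No doublets were removed in the main analysis. Scrublet scores (scanpy 1.11.5) were computed per count matrix. In an alternative, the 6100 highest-scoring barcodes were left out, a fixed share of each matrix that was set by the study's overall share of doublets. Counts were summed per batch and class (at least 20 barcodes, or 10 within members and for the *tal1*, *cxcl14* and *otx1* set) and tested with edgeR 4.0.16 (TMM, filterByExpr, quasi-likelihood test, R 4.3.3) with batch as a block and Benjamini-Hochberg adjustment over all genes tested, at 0.05. Batch 2 held too few GABAergic members, and batches 2 and 3 too few members with *lhx1a*/*emx2* or *uncx*/*emx2*, although their *lhx1a*/*uncx* sums entered the fit. Classes of a batch came from the same larvae and libraries, and deviations of members and others correlated within every batch (r from 0.480 to 0.960 over 3348 genes). Log2 differences are the fitted values. For edgeR, the standard error (SE) was derived from the test, as the absolute log2 difference divided by the square root of the F statistic. For DESeq2 it is the one that tool reports. Shares were compared by exact sign-flip and permutation tests (scipy 1.17.1).

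Named genes were those of 27 lists and up to 15 higher and 10 lower genes with the largest log2 difference, called, of the same direction in every batch and found in at least 10% of the barcodes of the higher class. Direction in every batch was judged on TMM-normalized log2 counts with a prior count of 1, and the numbers of batches given beside a single gene on its levels. Genes that chose the classes were not tested. The members and lists were chosen with earlier results of these data known. Alternatives were DESeq2 1.42.0, no filter on low counts, no block, leaving out each batch, high doublet scores or barcodes with habenula or lens genes, thinning to 1000 UMIs, depth-matched or stricter comparison groups, 2 UMIs per chosen gene, and members with *elavl3* only. The scripts were tested on simulated data. Intervals cover counting error only. Some symbols stand for several gene IDs and are named with their ID.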

Additional observations from a re-analysis of the deposited data

Results flagged for a closer look

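Among the 4 batches at 6 dpf, the share of members in batch 5 stood apart at 16.2%, against 11.4 to 12.1% in the other batches of that age, with a gap to the nearest batch larger than Dixon's 95% limit for 4 values. Of 38 groups of batches examined in this way it was the only one, and chance flags about 1 in 20 groups. The highest share of all, 17.5% in batch 8, was in the 7 dpf group and was not singled out there. As the age labels of batch 8 disagree, the flag on batch 5 depends on batch 8 being counted at 7 dpf, and the alternative was not examined.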

How the results depend on the processing

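No result changed direction in any alternative run. Without the replicate block, which ignores the pairing of classes within a batch, 83 genes were higher and 230 lower in members than in the other *elavl3* barcodes, 8 and 10 among GABAergic barcodes, 7 and 4 between *lhx1a*/*uncx* and *uncx*/*emx2* members, 3 and 3 between *lhx1a*/*uncx* and *lhx1a*/*emx2* members, 2 and 3 between *lhx1a*/*emx2* and *uncx*/*emx2* members, 6 and 25 between members with *tal1* and with *nxph2b*, and 16 and 27 against the *tal1*, *cxcl14* and *otx1* barcodes. Thinning to 1000 UMIs, which left fewer genes to test, gave 269 and 471, 65 and 64, 27 and 10, 27 and 27, 28 and 32, 120 and 102, and 338 and 257 in the same order. It left 6245 genes tested against the others, 2386 among GABAergic barcodes and 1162 in each comparison of pairs. For members with *tal1* and with *nxph2b* it left 1325, and against the *tal1*, *cxcl14* and *otx1* barcodes 2191. Depth-matched others gave 234 and 327 of 4976 tested among GABAergic barcodes. Without the filter on low counts, 23624 genes were tested in each comparison of pairs, against 4478 with it. Of these, 483 and 463 were higher in *lhx1a*/*uncx* members than in *uncx*/*emx2* and *lhx1a*/*emx2* members. In the same setting, 709 of 23336 genes were higher in members with *tal1* (5951 tested with the filter). Against the *tal1*, *cxcl14* and *otx1* barcodes, 896 of 24042 were lower (5227 with the filter). At 7 dpf, 10 were higher and 82 lower of 23769 (8672 with the filter). DESeq2 called 1 gene higher at 7 dpf. The causes were not tested.

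Leaving out single batches gave 655 to 1151 genes higher and 1049 to 1422 lower than in the others, 246 to 505 and 376 to 595 among GABAergic barcodes, 135 to 310 and 105 to 216, 84 to 353 and 74 to 177, and 126 to 237 and 140 to 365 in the 3 comparisons of pairs, 242 to 483 and 170 to 318 between members with *tal1* and with *nxph2b*, 474 to 783 and 423 to 597 against the *tal1*, *cxcl14* and *otx1* barcodes, and 0 to 0 and 0 to 4 at 7 dpf. The number of genes tested also changed with the batch left out. The difference in share between ages ranged from -3.07 to -0.867 points and that of *chata* from -0.915 to -0.406 points, past the threshold without batch 6. After thinning, the *chata* difference was -0.857 points and past the threshold. Of the values of single named genes under these alternatives, 2874 kept their side of the threshold and 111 did not, 100 of them without the block. The smallest batch held 22 members, which limited what low genes could show. The background in microglia-marked barcodes limited what shares at or below it could show.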
